A study of Mus musculus with 16 samples.

Results

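The 10 genes described here encode transcription factors of the chondrocyte lineage: Sox9, Sox5, Sox6, Sox4, Nkx3-2, Runx1, Runx3, Trps1, Barx1 and Foxc1. They were found by symbol among the 55450 genes of the deposited expression tables, and all 10 had 1 row each. Cells were chondrocytes taken from mouse joint cartilage into primary culture and grown at 3% oxygen with 10% fetal bovine serum. Each of 4 conditions had 4 RNA sequencing libraries. In the bleomycin group, cells were treated with hyaluronidase at 4 U/mL for 4 h, then with the DNA-breaking drug bleomycin at 50 µg/mL for 24 h, and were left in fresh medium for 5 days. In the doxorubicin group, this topoisomerase II poison was present at 50 nM for 5 days, with new medium every 48 h. In the interleukin-1 beta (IL-1β) group, the inflammatory cytokine was given at 1 ng/mL for 24 h. The vehicle group received phosphate-buffered saline for 24 h. The study used both drugs to induce senescence, a lasting growth arrest, and the cytokine as an acute stress. The labels do not say whether vehicle cells were kept as long as drug-treated cells or received hyaluronidase, so drug effects and time or handling in culture cannot be told apart. They also do not say whether the 4 libraries of a group came from separate animals, so p-values measure the spread between these libraries.

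SOX9 is an HMG-box factor that opens and activates the enhancers of cartilage matrix genes such as Col2a1 and Acan, and cartilage does not form without it. SOX5 and SOX6 have no activation domain of their own and bind beside SOX9 to strengthen its action, which is why the 3 are called the SOX trio. RUNX factors bind DNA together with the subunit CBFβ, and in cartilage they are best known for driving chondrocyte hypertrophy, the maturation step that precedes bone formation. NKX3-2, BARX1, TRPS1 and FOXC1 are further regulators of where cartilage forms and how far it matures.

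Levels are FPKM, a fragment count normalised by the authors for gene length and library depth. The 16 libraries had an estimated 15.8 to 22.1 M (mega) fragments. Differences are on the log2(FPKM + 1) scale and come from 1 limma fit of all 16 libraries, with p-values adjusted by the Benjamini-Hochberg method over 12976 tested genes. "Rose", "fell", "higher" and "lower" are used as calls at an adjusted p under 0.05. A gene was tested if 4 or more of the 16 libraries had 1 FPKM or more, which all 10 genes passed, so none was left out. The FPKM of each IL-1β library summed to 521294 to 559190, against 405159 to 423830 in the others, and 1 gene, the acute-phase gene Saa3, held 12.0% to 14.4% of the IL-1β sums and at most 0.63% elsewhere. Scaling every library to the same sum moved the median difference of all genes between IL-1β and vehicle to -0.31, against 0.03 with FPKM as deposited. IL-1β values were therefore also read relative to that median.

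By mean over the 16 libraries the genes spanned more than an order of magnitude. Sox9 was the most abundant, at rank 1591 of the 12976 tested genes, followed by Barx1 at 2532, Sox4 at 3826, Foxc1 at 4539, Trps1 at 4934 and Sox6 at 5088. Runx1 came at rank 6541, Sox5 at 7341, Runx3 at 9090 and Nkx3-2 at 9651. All 10 are annotated as protein coding.

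**Figure D1:**
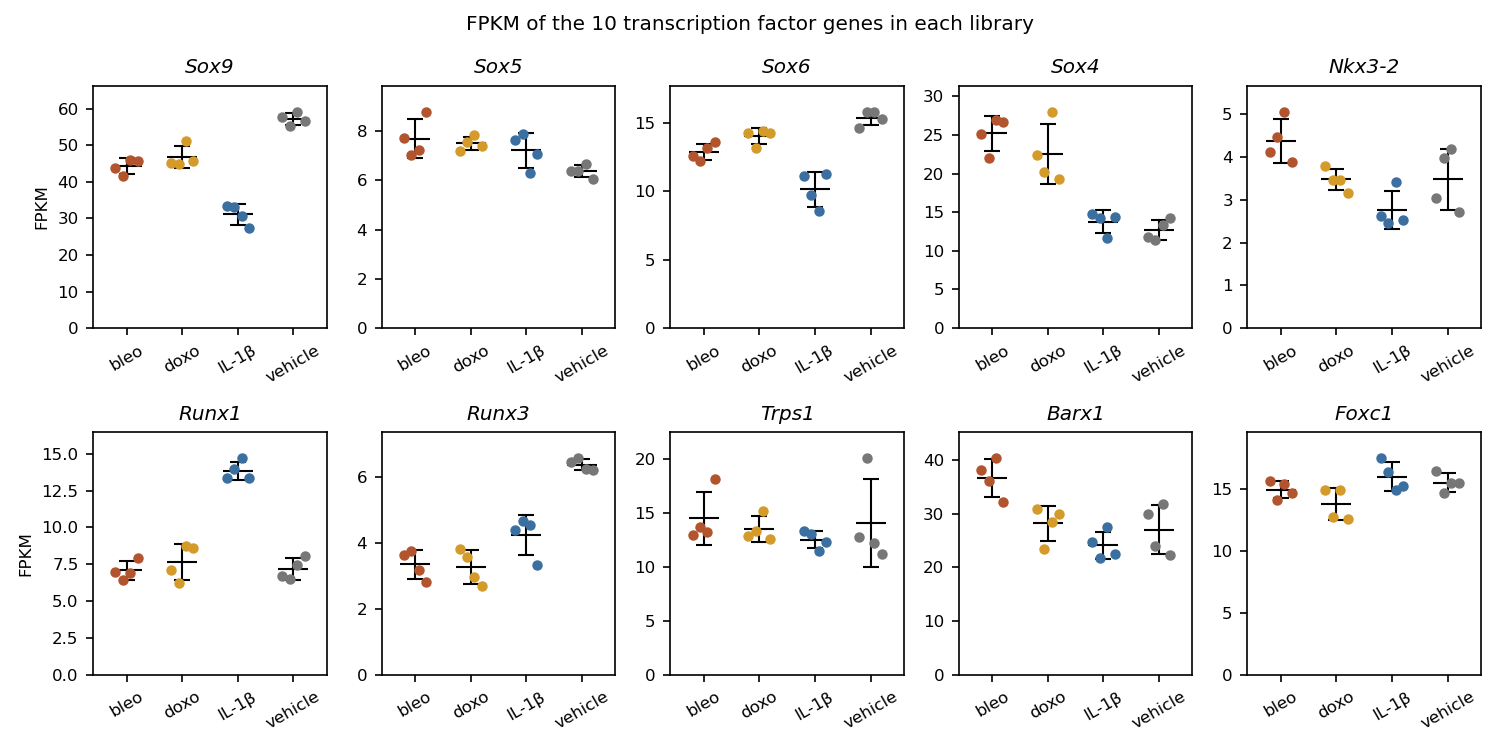
FPKM of each of the 10 genes in each library (1 point per library; horizontal line, mean; error bars, SD; n = 4 per group), with bleomycin, doxorubicin, IL-1β and vehicle from left to right and each vertical axis starting at 0. Sox4 stands above vehicle with both drugs, Runx1 stands above vehicle with IL-1β, and Sox9 and Runx3 lie below vehicle in all 3 treated groups.

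Sox9 and Runx3 fell in all 3 comparisons with vehicle, Sox4 rose with both drugs, and Runx1 rose with IL-1β. After bleomycin, 6 of the 10 genes were called, 3 higher (Sox5, Sox4, Barx1) and 3 lower (Sox9, Sox6, Runx3), where 46.9% of all tested genes were called. Calls numbered 27.9% higher and 19.0% lower over all genes. Doxorubicin called 4 of 10, with Sox5 and Sox4 higher and Sox9 and Runx3 lower, where 48.3% of all genes were called, 25.4% higher and 22.8% lower. IL-1β also called 4 of 10, with Runx1 higher and Sox9, Sox6 and Runx3 lower, where 43.0% of all genes were called, 24.5% higher and 18.4% lower. The libraries of treatment and vehicle did not overlap for 6 of the 10 genes with bleomycin, 5 with doxorubicin and 4 with IL-1β, where 43.9%, 44.1% and 38.5% of all genes did not overlap. The shares of members called were thus near the shares of all genes, and the account below rests on each gene's own values. The median difference of the 10 genes was 0.02 with bleomycin, -0.01 with doxorubicin and -0.14 with IL-1β, against 0.06, 0.02 and 0.03 over all tested genes in the same comparisons. The 3 comparisons use the same 4 vehicle libraries, so their values are set side by side and are not independent of each other.

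**Figure D2:**
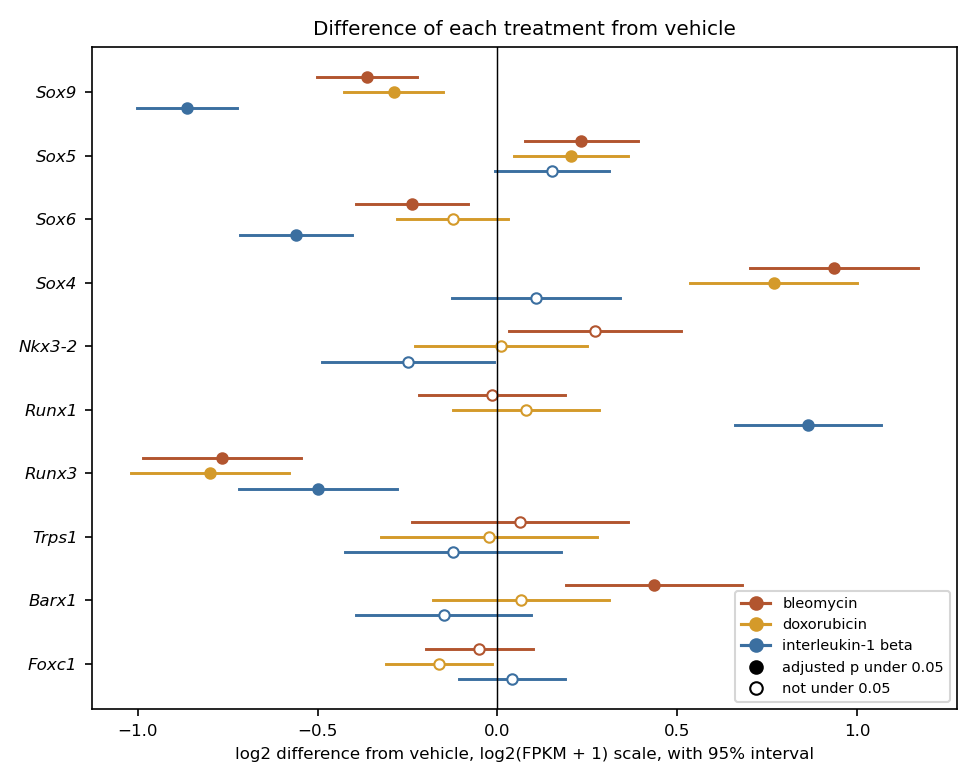
Difference of each treatment from vehicle for the 10 genes on the log2(FPKM + 1) scale, with 95% intervals from the limma fit of 16 libraries; filled points have an adjusted p under 0.05. Runx1 is displaced with IL-1β and not called with either drug, Sox4 is displaced with both drugs and not called with IL-1β, and the 3 Sox9 points are all below 0.

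Sox9 (ENSMUSG00000000567.5; GRCm38 chromosome 11, 112782224 to 112787760, plus strand) fell in every treated group, most with IL-1β. It had 43.7, 41.7, 46.1 and 45.9 FPKM in bleomycin libraries, 45.1, 44.9, 51.2 and 45.8 in doxorubicin libraries, 33.4, 33.3, 30.6 and 27.3 in IL-1β libraries, and 57.9, 55.4, 59.2 and 56.6 in vehicle libraries. No treated library reached the lowest vehicle library, and no IL-1β library reached the lowest drug library. Means were 44.3 ± 2.09 FPKM with bleomycin, 46.8 ± 3.00 with doxorubicin, 31.1 ± 2.87 with IL-1β and 57.3 ± 1.62 with vehicle (SD, n = 4 each). The level was 1.29-fold lower with bleomycin than with vehicle (log2 difference -0.36 ± 0.06 SE, adjusted p = 0.000264), 1.22-fold lower with doxorubicin (-0.29 ± 0.06, adjusted p = 0.0016) and 1.84-fold lower with IL-1β (-0.86 ± 0.06, adjusted p = 1.89e-08). Sox9 had the highest FPKM of the 10 genes in each of the 16 libraries. In these bulk libraries a lower level can be fewer cells that express a gene or less RNA per cell, which cannot be told apart.

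The gap between the drugs and the cytokine was tested directly. Sox9 was higher with bleomycin than with IL-1β (log2 difference 0.50 ± 0.06, adjusted p = 8.22e-06) and higher with doxorubicin than with IL-1β (0.57 ± 0.06, adjusted p = 1.61e-06). Between bleomycin and doxorubicin the difference was -0.07 with a 95% interval of -0.21 to 0.06, and the groups overlapped. Relative to the median of all genes in equal-sum scaling, the IL-1β difference from vehicle was -0.94.

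Sox6 (ENSMUSG00000051910.13; chromosome 7, 115470872 to 116038796, minus strand), the SOX9 co-factor with the higher level, had its low values in the same group. It had 12.6, 12.3, 13.2 and 13.6 FPKM with bleomycin, 14.3, 13.2, 14.4 and 14.3 with doxorubicin, 11.1, 9.77, 8.54 and 11.3 with IL-1β, and 14.7, 15.8, 15.8 and 15.3 with vehicle. All 12 treated libraries lay below the lowest vehicle library. Means were 12.9 ± 0.60, 14.05 ± 0.58 and 10.2 ± 1.28 FPKM with bleomycin, doxorubicin and IL-1β, and 15.4 ± 0.54 FPKM with vehicle. Sox6 fell 1.19-fold with bleomycin (-0.24 ± 0.07, adjusted p = 0.0136) and 1.51-fold with IL-1β (-0.56 ± 0.07, adjusted p = 1.06e-05). With doxorubicin it was not called although the groups did not overlap (-0.12 ± 0.07, adjusted p = 0.176). Sox6 was higher with either drug than with IL-1β, by 0.32 for bleomycin (adjusted p = 0.00146) and 0.44 for doxorubicin (adjusted p = 9.76e-05).

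Sox5 (ENSMUSG00000041540.16; chromosome 6, 143828425 to 144781977, minus strand) is the closest paralogue of Sox6 in the trio and did not follow it. It had 7.75, 7.04, 7.23 and 8.79 FPKM with bleomycin, 7.21, 7.58, 7.86 and 7.38 with doxorubicin, 7.63, 7.88, 6.30 and 7.08 with IL-1β, and 6.38, 6.41, 6.67 and 6.08 with vehicle. Every drug library was above the highest vehicle library, while the IL-1β libraries overlapped vehicle in 1 library, replicate 3. The mean rose to 7.70 ± 0.78 FPKM with bleomycin and 7.51 ± 0.28 with doxorubicin, against 6.38 ± 0.24 with vehicle, which is 1.21-fold (0.23 ± 0.07, adjusted p = 0.0166) and 1.18-fold (0.20 ± 0.07, adjusted p = 0.0319). With IL-1β the mean was 7.22 ± 0.70 FPKM and the difference 0.15 ± 0.07 (adjusted p = 0.114). Without IL-1β replicate 3 the difference was 0.21 and was called (adjusted p = 0.0323).

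These small Sox5 differences depended on single libraries and on scaling. The bleomycin call was lost without bleomycin replicate 4 (0.18, adjusted p = 0.0638), with median-of-ratios scaling (0.17, adjusted p = 0.0583) and with quantile normalization (0.16, adjusted p = 0.0695). The doxorubicin call was lost on leaving out doxorubicin replicate 2 (0.20, adjusted p = 0.0629) or 3 (0.19, adjusted p = 0.0777), or vehicle replicate 1 (0.20, adjusted p = 0.0575), 2 (0.21, adjusted p = 0.0555) or 4 (0.18, adjusted p = 0.0798).

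Sox4 (ENSMUSG00000076431.4; chromosome 13, 28948919 to 28953713, minus strand) encodes a SOXC factor, a group known from skeletal progenitors and forming joints rather than from mature cartilage. It gave the largest rise of the 10 genes with either drug. Libraries had 25.1, 22.0, 27.0 and 26.7 FPKM with bleomycin, 22.4, 20.2, 28.0 and 19.3 with doxorubicin, 14.8, 14.2, 11.6 and 14.4 with IL-1β, and 11.8, 11.4, 13.3 and 14.2 with vehicle. The 8 drug libraries were all above the 8 IL-1β and vehicle libraries, and IL-1β and vehicle overlapped. Mean levels were 25.2 ± 2.27 FPKM with bleomycin, 22.5 ± 3.88 with doxorubicin and 13.8 ± 1.46 with IL-1β, against 12.7 ± 1.31 with vehicle. Sox4 rose 1.98-fold with bleomycin (0.94 ± 0.11, adjusted p = 4.1e-06) and 1.77-fold with doxorubicin (0.77 ± 0.11, adjusted p = 2.52e-05).

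With IL-1β the Sox4 difference from vehicle was 0.11 with a 95% interval of -0.13 to 0.34 (adjusted p = 0.463), and it was -0.25 with equal-sum scaling, which is 0.06 above that scaling's median. The drugs were higher than IL-1β by 0.83 ± 0.11 for bleomycin (adjusted p = 1.01e-05) and 0.66 ± 0.11 for doxorubicin (adjusted p = 9.24e-05). Sox4 shares 2616 exonic bases with Gm26735, a long noncoding RNA gene on the opposite strand. The library kit keeps strand, but whether counting used strand is not given in the sources used here, so reads of the 2 genes may not be separated. Gm26735 is not listed in the deposited expression values, so its level could not be read. Sox5 shares 1330 exonic bases with the antisense gene Sox5os1, which did not exceed 0.029 FPKM in any library.

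**Figure D3:**
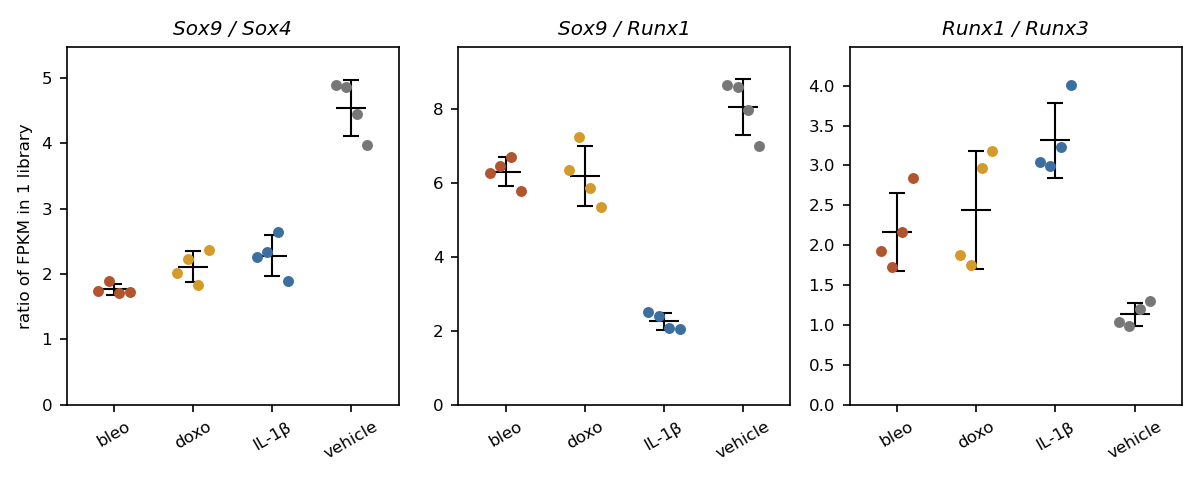
Ratio of FPKM between pairs of the 10 genes within each library (1 point per library; horizontal line, mean; error bars, SD; n = 4 per group), with bleomycin, doxorubicin, IL-1β and vehicle from left to right. The Sox9 to Sox4 ratio is below vehicle in all 12 treated libraries, and the Sox9 to Runx1 ratio is lowest in the 4 IL-1β libraries.

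Ratios within a library stay the same when all its values are multiplied by a common factor, as in equal-sum or median-of-ratios scaling. Quantile normalization can change them. The Sox9 to Sox4 ratio of FPKM was 1.77 ± 0.09 with bleomycin, 2.11 ± 0.23 with doxorubicin and 2.28 ± 0.31 with IL-1β, against 4.54 ± 0.43 with vehicle (SD, n = 4 each). Its 12 treated values ran from 1.71 to 2.64, and its vehicle values from 3.98 to 4.89. The drug and cytokine groups reached similar ratios from different levels: Sox4 was high with the drugs, and Sox9 was low with IL-1β. Sox9 over Sox6 moved less, at 3.44 ± 0.06 with bleomycin, 3.33 ± 0.18 with doxorubicin and 3.10 ± 0.51 with IL-1β, against 3.72 ± 0.18 with vehicle.

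Runx1 (ENSMUSG00000022952.17; chromosome 16, 92601466 to 92826149, minus strand), known from blood stem cells and also active in cartilage progenitors and articular cartilage, rose with IL-1β and was not called with either drug. It had 6.998, 6.46, 6.90 and 7.95 FPKM with bleomycin, 7.13, 6.22, 8.77 and 8.58 with doxorubicin, 13.3, 13.96, 14.7 and 13.4 with IL-1β, and 6.70, 6.46, 7.43 and 8.09 with vehicle. The lowest IL-1β library was above each of the other 12 libraries, and both drug groups overlapped vehicle. The mean was 13.8 ± 0.64 FPKM with IL-1β and 7.17 ± 0.74 FPKM with vehicle, a 1.93-fold rise (0.86 ± 0.10, adjusted p = 1.8e-06). Means were 7.08 ± 0.63 FPKM with bleomycin and 7.68 ± 1.22 FPKM with doxorubicin, with 95% intervals of the difference from vehicle of -0.22 to 0.19 and -0.12 to 0.28. Bleomycin was lower than IL-1β by a log2 difference of -0.88 ± 0.10 (adjusted p = 1.16e-06), and doxorubicin by -0.78 ± 0.10 (adjusted p = 3.76e-06). The rise with IL-1β held under equal-sum scaling, at 0.55 (adjusted p = 0.000209), which is 0.86 above that scaling's median.

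Runx3 (ENSMUSG00000070691.10; chromosome 4, 135120652 to 135177990, plus strand), which acts with RUNX2 in chondrocyte maturation, went the other way from Runx1 with IL-1β and fell with each treatment. Its libraries had 3.63, 3.76, 3.19 and 2.80 FPKM with bleomycin, 3.80, 3.57, 2.96 and 2.70 with doxorubicin, 4.39, 4.67, 4.54 and 3.34 with IL-1β, and 6.44, 6.56, 6.23 and 6.22 with vehicle. All 12 treated libraries were below all 4 vehicle libraries, which differed little among themselves. Runx3 averaged 3.34 ± 0.44 FPKM with bleomycin, 3.26 ± 0.51 with doxorubicin, 4.23 ± 0.61 with IL-1β and 6.36 ± 0.16 with vehicle. It was 1.90-fold lower with bleomycin (-0.77 ± 0.10, adjusted p = 1.75e-05), 1.95-fold lower with doxorubicin (-0.80 ± 0.10, adjusted p = 9.22e-06) and 1.502-fold lower with IL-1β (-0.50 ± 0.10, adjusted p = 0.000932). These were the largest falls of the 10 genes with either drug.

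Whether Runx3 fell further with the drugs than with IL-1β was less firm. Bleomycin was lower than IL-1β by -0.27 ± 0.10 (adjusted p = 0.0398) and doxorubicin by -0.30 ± 0.10 (adjusted p = 0.0228), and in both cases the groups overlapped through IL-1β replicate 4. Replicate 4 was also the lowest Runx3 library of every other group. A replicate block, which is a fit that also includes replicate number, kept both calls. Equal-sum scaling ended both calls, at 0.04 (adjusted p = 0.78) for bleomycin and -0.0013 (adjusted p = 0.993) for doxorubicin. Relative to that scaling's medians the values were -0.33 and -0.32, beside -0.28 and -0.27 relative to the medians of FPKM as deposited. A fit of the compared groups alone lost both calls (adjusted p = 0.0739 and 0.0595), and a run without a filter lost that of bleomycin (adjusted p = 0.0799). The bleomycin call was lost without bleomycin replicate 3 (adjusted p = 0.0846) or 4 (adjusted p = 0.127) and without IL-1β replicate 1 (adjusted p = 0.083), 2 (adjusted p = 0.108) or 3 (adjusted p = 0.0952), at differences of -0.25 to -0.21. The doxorubicin call was lost without doxorubicin replicate 3 (adjusted p = 0.0623) or 4 (adjusted p = 0.0788) and without IL-1β replicate 1 (adjusted p = 0.0519), 2 (adjusted p = 0.0673) or 3 (adjusted p = 0.0594), at differences of -0.28 to -0.23.

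Within a library, Runx1 over Runx3 was 2.16 ± 0.49 with bleomycin, 2.44 ± 0.74 with doxorubicin and 3.32 ± 0.47 with IL-1β, against 1.13 ± 0.14 with vehicle. Each treated library was above each vehicle library. Sox9 over Runx1 was 6.29 ± 0.39 with bleomycin, 6.18 ± 0.80 with doxorubicin and 2.25 ± 0.23 with IL-1β, against 8.04 ± 0.76 with vehicle, so the IL-1β group stood apart on that ratio.

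Both RUNX genes are read from a distal and a proximal promoter, and the distal promoter regions share a stretch of sequence, shown here because Runx1 rose and Runx3 fell with IL-1β. Each line gives 30 bases on the strand of the gene from RefSeq (GRCm38.p6), with the shared stretch of 18 bases in capitals. The Runx1 piece is at chr16:92826025-92826054 (minus strand) and the Runx3 piece at chr4:135120503-135120532 (plus strand).
Runx1 distal promoter: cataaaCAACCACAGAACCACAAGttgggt
Runx3 distal promoter: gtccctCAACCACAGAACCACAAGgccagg
The shared stretch lies at bases 27 to 44 counted from the Runx1 transcript start as base 1, and 136 to 119 bases before the Runx3 start. It contains ACCACA at 2 places, which is TGTGGT on the other strand, the letters that RUNX proteins bind.

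The shared stretch, searched on both strands, was in 4 of 32851 RefSeq windows (0.0122%), each running from 250 bases before a gene's start to 50 after it. These belonged to Runx1, Runx2, Runx3 and Gm16225, a gene on the opposite strand of chromosome 4. When only the 250 bases before the start were read, TGTGGT on either strand was in 4614 windows. RefSeq windows were found for 8 of the 10 genes, 15 in all. In the bases before the start, TGTGGT was in 2 of 6 Sox6 windows, in the distal Runx3 window and in the Foxc1 window. The AP-1 letters TGANTCA were in none of the 15 windows and in 6.75% of all windows, and the NF-kB motif was in the Foxc1 window alone and in 3.90% of all windows. These are matches of letters, and gene-level FPKM does not separate the distal from the proximal promoter.

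Runx2, the paralogue that drives hypertrophy and holds the same stretch, was picked after its values were seen. It had 4.30 ± 0.26 FPKM with bleomycin, 3.58 ± 0.55 with doxorubicin and 5.79 ± 0.63 with IL-1β, against 5.84 ± 0.27 with vehicle. It fell with bleomycin (-0.37 ± 0.09, adjusted p = 0.00312) and doxorubicin (-0.59 ± 0.09, adjusted p = 5.12e-05). With IL-1β the difference was -0.02 ± 0.09 (adjusted p = 0.907), so Runx1, Runx2 and Runx3 each had their own pattern across the treatments. The gene of their shared subunit, Cbfb, was 1.23-fold lower with doxorubicin, at 22.2 ± 3.81 FPKM against 27.3 ± 2.33 FPKM with vehicle (-0.29 ± 0.10, adjusted p = 0.0283), and those groups overlapped. It was also 1.25-fold lower with IL-1β (-0.31, adjusted p = 0.0259), where the groups did not overlap, and was not called with bleomycin (-0.08, adjusted p = 0.551).

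Runx1 and Runx3 are also active in blood cells, and leukocyte markers were read beside them; their part in the Runx1 and Runx3 values was not tested. Of 8 lymphocyte markers none reached 1 FPKM in any library, and Cd3e, Cd8a, Ms4a1 and Nkg7 were listed at 0 in all 16. Of 10 macrophage markers 6 never reached 1 FPKM, with Ptprc at most 0.032, Adgre1 at most 0.019 and Itgam at most 0.038. The summed level of the macrophage list was 16.3 to 17.96 FPKM with bleomycin, 19.3 to 24.1 with doxorubicin and 29.1 to 34.8 with IL-1β, against 9.10 to 11.1 with vehicle. Cd68, Cd14 and Lyz2 rose in all 3 comparisons, and with IL-1β they averaged 7.94, 15.8 and 6.66 FPKM, against 1.41, 3.85 and 3.33 FPKM with vehicle. Mrc1, the remaining tested marker, fell with IL-1β, to 0.54 ± 0.05 FPKM against 1.06 ± 0.14 FPKM with vehicle (adjusted p = 0.00091). Csf1r, under 1 FPKM throughout, averaged 0.14, 0.55 and 0.70 FPKM with bleomycin, doxorubicin and IL-1β, against 0.20 with vehicle.

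Barx1 (ENSMUSG00000021381.4; chromosome 13, 48662998 to 48666507, plus strand), a homeobox gene of the jaw and the forming joints, rose with bleomycin. Libraries had 38.2, 36.1, 40.3 and 32.1 FPKM with bleomycin, 30.8, 23.5, 28.5 and 29.9 with doxorubicin, 24.7, 21.7, 27.4 and 22.6 with IL-1β, and 29.98, 24.0, 31.8 and 22.3 with vehicle. The 4 bleomycin libraries were the 4 highest of all 16, and the other 3 groups overlapped. Barx1 was 36.7 ± 3.49 FPKM with bleomycin and 27.0 ± 4.60 FPKM with vehicle, a 1.36-fold rise (0.44 ± 0.12, adjusted p = 0.00545). Doxorubicin averaged 28.2 ± 3.26 FPKM (0.06 ± 0.12, adjusted p = 0.674) and IL-1β 24.1 ± 2.55 FPKM (-0.15 ± 0.12, adjusted p = 0.322). Equal-sum scaling called the IL-1β difference (-0.52, adjusted p = 0.00061; -0.21 relative to that scaling's median). Bleomycin was higher than IL-1β by 0.59 ± 0.12 (adjusted p = 0.000474).

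The difference between the 2 drugs in Barx1 was 0.37 ± 0.12 with a 95% interval of 0.13 to 0.62 and just missed the threshold (adjusted p = 0.0524). It was called without vehicle replicate 3 (adjusted p = 0.0392) or 4 (adjusted p = 0.0386), without IL-1β replicate 3 (adjusted p = 0.0476), and without bleomycin replicate 4 (0.43, adjusted p = 0.0391). Equal-sum scaling (0.38, adjusted p = 0.0349), a fit of the drug groups alone (adjusted p = 0.0439) and the stricter filter (adjusted p = 0.0492) also called it. So did a replicate block (adjusted p = 0.0103).

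Nkx3-2 (ENSMUSG00000049691.8; chromosome 5, 41761483 to 41764501, minus strand), a homeobox repressor that favours cartilage formation and holds back hypertrophy, was the least abundant of the 10, with an estimated 73 to 148 fragments per library. It had 4.12, 4.46, 5.06 and 3.88 FPKM with bleomycin, 3.79, 3.47, 3.47 and 3.17 with doxorubicin, 2.63, 2.45, 3.41 and 2.54 with IL-1β, and 3.04, 3.97, 4.19 and 2.72 with vehicle. The vehicle libraries were widely spread and overlapped each of them. Means were 4.38 ± 0.51 FPKM with bleomycin, 3.48 ± 0.25 with doxorubicin and 2.76 ± 0.44 with IL-1β, against 3.48 ± 0.71 with vehicle. No comparison with vehicle was called, at 0.27 ± 0.11 for bleomycin (adjusted p = 0.0584), 0.01 ± 0.11 for doxorubicin (adjusted p = 0.95) and -0.25 ± 0.11 for IL-1β (adjusted p = 0.0895). Bleomycin was 1.59-fold higher than IL-1β (0.52 ± 0.11, adjusted p = 0.00106), and those groups did not overlap.

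Single libraries, scaling and a replicate block set the side of the threshold for Nkx3-2 against vehicle. With the block, both the bleomycin difference (adjusted p = 0.0225) and the IL-1β difference (adjusted p = 0.0377) were called. The bleomycin difference was called without bleomycin replicate 4 (0.32, adjusted p = 0.0467), vehicle replicate 2 (0.33, adjusted p = 0.0395), vehicle replicate 3 (0.35, adjusted p = 0.0218) or IL-1β replicate 3 (adjusted p = 0.0427). The IL-1β difference was called without IL-1β replicate 3 (-0.33, adjusted p = 0.0308) or vehicle replicate 4 (-0.33, adjusted p = 0.0266). Equal-sum scaling called both the bleomycin difference (0.32, adjusted p = 0.0435) and the IL-1β difference (-0.61, adjusted p = 0.000508; -0.30 relative to that scaling's median), and quantile normalization called the IL-1β difference (-0.31, adjusted p = 0.0441).

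Foxc1 (ENSMUSG00000050295.4; chromosome 13, 31806633 to 31812476, plus strand), a forkhead gene needed for normal endochondral bone formation, kept within a narrow range. Libraries had 15.7, 14.1, 15.4 and 14.7 FPKM with bleomycin, 14.9, 12.7, 15.0 and 12.6 with doxorubicin, 17.5, 16.4, 15.0 and 15.2 with IL-1β, and 16.5, 14.7, 15.5 and 15.5 with vehicle. Every pair of groups overlapped. Foxc1 averaged 15.0 ± 0.72 FPKM with bleomycin, 13.8 ± 1.31 with doxorubicin, 16.02 ± 1.16 with IL-1β and 15.5 ± 0.75 with vehicle. The differences from vehicle were -0.05, -0.16 and 0.04, with adjusted p = 0.593, 0.0671 and 0.672 for bleomycin, doxorubicin and IL-1β. The doxorubicin difference was called without doxorubicin replicate 1 (-0.20, adjusted p = 0.041) or 3 (-0.20, adjusted p = 0.036). Median-of-ratios scaling (-0.18, adjusted p = 0.0377), quantile normalization (-0.17, adjusted p = 0.0482) and a replicate block (adjusted p = 0.0356) also called it. Doxorubicin was lower than IL-1β by -0.20 ± 0.07 (adjusted p = 0.0222). That call was lost without doxorubicin replicate 2 (-0.17, adjusted p = 0.074) or 4 (-0.16, adjusted p = 0.0728) and without IL-1β replicate 1 (-0.16, adjusted p = 0.0757) or 2 (-0.19, adjusted p = 0.0505), and with equal-sum scaling the value was 0.16 (adjusted p = 0.0793). Quantile normalization (-0.16, adjusted p = 0.0542) and a fit of the compared groups alone (-0.20, adjusted p = 0.0637) also lost the call.

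Trps1 (ENSMUSG00000038679.16; chromosome 15, 50654752 to 50890463, minus strand), a GATA-type repressor whose loss causes a human skeletal syndrome, was called in none of the 6 comparisons on FPKM as deposited. It had 12.9, 13.7, 13.2 and 18.1 FPKM with bleomycin, 12.9, 13.3, 15.2 and 12.6 with doxorubicin, 13.3, 13.0, 11.5 and 12.2 with IL-1β, and 12.8, 20.05, 12.2 and 11.2 with vehicle. Vehicle replicate 2 and bleomycin replicate 4 were well above the rest, and all groups overlapped. Its means were 14.5 ± 2.45 FPKM with bleomycin, 13.5 ± 1.18 with doxorubicin and 12.5 ± 0.81 with IL-1β, against 14.05 ± 4.05 with vehicle, which was the widest spread relative to the mean among the 10 genes in any group. The 95% intervals of the difference from vehicle were -0.24 to 0.36, -0.32 to 0.28 and -0.42 to 0.18 with bleomycin, doxorubicin and IL-1β. Shifts of less than about that size were not detectable here. With equal-sum scaling Trps1 was called lower with IL-1β than with vehicle (-0.49, adjusted p = 0.0113; -0.18 relative to that scaling's median) and higher with bleomycin (0.56, adjusted p = 0.00396) and doxorubicin (0.47, adjusted p = 0.0131) than with IL-1β.

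Between bleomycin and doxorubicin, 0 of the 10 genes were called by limma, where 10.0% of all tested genes were, 5.85% higher and 4.18% lower. The 759 higher calls became 481 without bleomycin replicate 1. There were 2 with an unadjusted p under 0.05, Nkx3-2 (0.26 ± 0.11, adjusted p = 0.163) and Barx1, and these were also the 2 whose groups did not overlap, where 17.9% of all genes did not overlap. Between bleomycin and IL-1β, 7 of the 10 were called, 5 higher and 2 lower, where 52.8% of all genes were called, 27.6% higher and 25.2% lower. Between doxorubicin and IL-1β, 6 were called, 3 higher and 3 lower, where 54.2% of all genes were called, 25.1% higher and 29.2% lower. Groups did not overlap for 6 genes between bleomycin and IL-1β and for 4 between doxorubicin and IL-1β, where 47.2% and 47.7% of all genes did not overlap. Sox9, Sox6 and Sox4 were higher and Runx1 and Runx3 lower with both drugs than with IL-1β.

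The known targets of SOX9 were read from a list of 21 cartilage genes, all of them tested. With bleomycin 4 were higher, 11 lower and 6 not called, with doxorubicin 5 were higher, 9 lower and 7 not called, and with IL-1β 0 were higher, 18 lower and 3 not called. Over all tested genes, 27.9% were higher and 19.0% lower with bleomycin, 25.4% and 22.8% with doxorubicin, and 24.5% and 18.4% with IL-1β. The list's median difference from vehicle was -0.28 with bleomycin, -0.23 with doxorubicin and -1.32 with IL-1β, beside medians over all genes of 0.06, 0.02 and 0.03. Of the 21 genes, 8 were lower in all 3 comparisons: Acan, Col11a1, Col11a2, Col2a1, Col9a1, Hapln1, Matn3 and Wwp2. Most encode the type II, IX and XI collagens and the proteoglycan scaffold of cartilage.

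Acan, the gene of aggrecan, had the largest fall of the list with either drug, to 303 ± 29.5 FPKM with bleomycin and 312 ± 41.1 with doxorubicin, against 620 ± 74.4 with vehicle (log2 differences -1.03 and -0.99, adjusted p = 4.96e-07 and 5.65e-07). With IL-1β the largest was that of Matn1, a cartilage matrilin, at 48.7 ± 4.80 FPKM against 433 ± 140 FPKM with vehicle, 8.88-fold lower (-3.08 ± 0.22, adjusted p = 9.33e-09). Some genes of the list went up with the drugs. Fmod, which encodes the collagen-binding fibromodulin, rose to 677 ± 16.3 FPKM with bleomycin, against 393 ± 49.6 FPKM with vehicle (0.79 ± 0.07, adjusted p = 1.23e-07). Mia, a secreted cartilage protein gene, rose to 77.5 ± 18.3 FPKM with doxorubicin, against 39.5 ± 7.61 FPKM with vehicle (0.95 ± 0.18, adjusted p = 0.000307). Fmod and Matn4 were higher with both drugs and lower with IL-1β, and Mia was higher with both drugs.

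**Figure D4:**
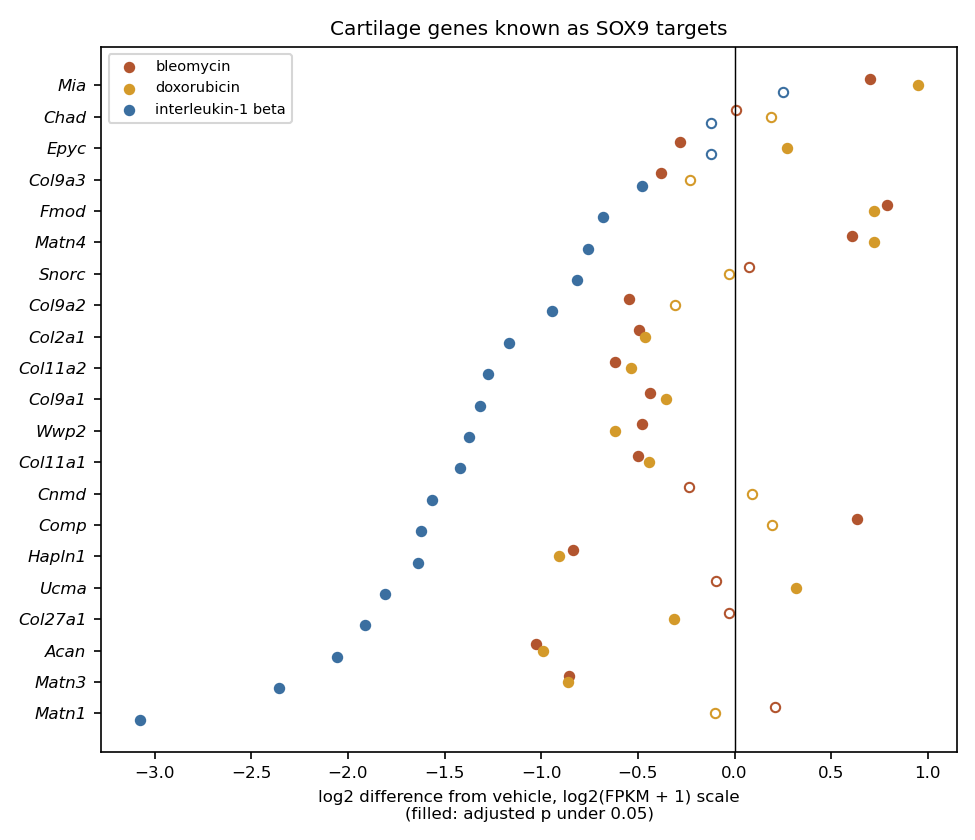
Difference from vehicle of the 21 listed SOX9 target genes on the log2(FPKM + 1) scale, ordered by the IL-1β value, with bleomycin, doxorubicin and IL-1β in separate colours; filled points have an adjusted p under 0.05. The IL-1β points run down to -3.08 at Matn1, the drug points lie on both sides of 0, and Acan is the lowest point of the list with each drug.

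Partners that bind SOX9 or RUNX proteins formed a second list of 22 genes, 19 of them tested. With bleomycin 9 were higher and 0 lower, with doxorubicin 8 higher and 3 lower, and with IL-1β 6 higher and 6 lower, with medians of 0.16, 0.12 and 0.00. Over all tested genes the shares higher and lower were 27.9% and 19.0%, 25.4% and 22.8%, and 24.5% and 18.4% in the same order. Medians over all genes were 0.06, 0.02 and 0.03. Zfp219, a zinc finger partner of SOX9, gave the largest rise with both drugs, to 9.61 ± 1.00 FPKM with bleomycin and 10.8 ± 1.43 FPKM with doxorubicin, against 5.15 ± 0.58 FPKM with vehicle (0.79 and 0.93, adjusted p = 6.04e-06 and 7.49e-07). With IL-1β the largest rise was that of Arid5a, another SOX9 partner, at 10.0 ± 2.56 FPKM against 5.15 ± 2.30 FPKM with vehicle (0.92 ± 0.29, adjusted p = 0.0179). Smad3, which carries TGF-β signals and cooperates with SOX9, fell to 10.5 ± 0.64 FPKM with IL-1β, against 17.7 ± 0.57 FPKM with vehicle (-0.71 ± 0.05, adjusted p = 1.75e-08).

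Of 40 other skeletal transcription factors 28 were tested. With bleomycin 8 were higher and 9 lower, with doxorubicin 7 higher and 10 lower, and with IL-1β 3 higher and 12 lower, with medians of 0.03, -0.11 and -0.20. Over all tested genes the shares higher and lower were 27.9% and 19.0%, 25.4% and 22.8%, and 24.5% and 18.4% in the same order. Medians over all genes were 0.06, 0.02 and 0.03. Sox8, a paralogue of Sox9 in the SOXE group, had the largest fall of the list in each comparison on the log2(FPKM + 1) scale: it had 2.22 ± 0.37 FPKM with bleomycin, 2.12 ± 0.48 with doxorubicin and 1.56 ± 0.30 with IL-1β, against 5.28 ± 0.58 with vehicle (adjusted p = 8.12e-06, 3.69e-06 and 2.41e-07). These were falls of 2.38-fold, 2.50-fold and 3.39-fold, beside 1.29-fold, 1.22-fold and 1.84-fold for Sox9, and the difference between the 2 genes was not tested. By ratio of means, Sp7 fell more than Sox8 with doxorubicin (2.79-fold) and Foxa2 more with IL-1β (5.199-fold), both named after their values were seen. Osr1, a zinc finger gene of joint and connective tissue progenitors, gave the largest rise with both drugs on that scale, at 23.5 ± 6.46 FPKM with bleomycin and 26.5 ± 7.89 with doxorubicin, against 13.4 ± 3.51 with vehicle (adjusted p = 0.0056 and 0.00139). The doxorubicin and vehicle libraries overlapped for it. By ratio of means, Zfp423, from low levels and likewise named later, rose more than Osr1, 2.27-fold with bleomycin and 2.30-fold with doxorubicin, against 1.76-fold and 1.98-fold. Twist2, a basic helix-loop-helix gene of mesenchymal cells, rose 4.34-fold with IL-1β, to 5.85 ± 0.40 FPKM against 1.35 ± 0.16 FPKM with vehicle (1.55 ± 0.09, adjusted p = 7.48e-10).

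Hypertrophy genes, several of them known RUNX targets, moved in both directions. Of 9 listed, 8 were tested and Ihh was below the filter. With bleomycin 1 was higher and 4 lower, with doxorubicin 3 higher and 4 lower, and with IL-1β 4 higher and 4 lower, with medians of -0.37, -0.55 and -0.05. Over all tested genes the shares higher and lower were 27.9% and 19.0%, 25.4% and 22.8%, and 24.5% and 18.4% in the same order. Medians over all genes were 0.06, 0.02 and 0.03. Spp1, the gene of osteopontin, rose 3.196-fold with bleomycin and 3.90-fold with doxorubicin, to 1643 ± 122 and 2007 ± 250 FPKM against 514 ± 63.7 FPKM with vehicle (adjusted p = 4.62e-09 and 4.78e-10). Panx3, a channel gene of prehypertrophic chondrocytes, had the largest fall with both drugs, to 8.30 ± 0.76 and 7.05 ± 0.47 FPKM against 16.5 ± 1.00 FPKM with vehicle (adjusted p = 4.82e-08 and 3.25e-09). With IL-1β the collagenase gene Mmp13 rose 8.37-fold, to 1518 ± 62.7 FPKM against 182 ± 52.8 FPKM with vehicle (adjusted p = 1.33e-09). Ibsp, which encodes bone sialoprotein, fell 2.47-fold with IL-1β, to 5.71 ± 1.93 FPKM against 14.1 ± 2.04 FPKM with vehicle (adjusted p = 0.000114).

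Markers of chondrocytes and of cells that could accompany them moved with the treatments, and their part in the values above was not tested. All 10 chondrocyte markers, all but Prg4 also on the list of SOX9 targets, were tested, with summed levels of 9225 to 12434 FPKM with bleomycin, 9415 to 12439 with doxorubicin and 5376 to 5824 with IL-1β, against 12128 to 16371 with vehicle. Col2a1 made up most of that sum, at 6356, 6495 and 3972 FPKM against 8971 with vehicle. Prg4 rose in all 3 comparisons, averaging 55.6, 97.4 and 38.1 FPKM against 21.1 with vehicle. Comp rose with bleomycin, to 1450 FPKM against 934 with vehicle. None of 7 endothelial markers reached 1 FPKM in any library. The 10 fibroblast markers summed to 3375 to 3574 FPKM with bleomycin, 3432 to 3754 with doxorubicin and 1031 to 1271 with IL-1β, against 2725 to 3219 with vehicle, and 2 of them never reached 1 FPKM. The 8 adipocyte markers summed to 77.0 to 88.1 FPKM with bleomycin, 157 to 205 with doxorubicin and 371 to 410 with IL-1β, against 38.0 to 43.2 with vehicle, and 1 never reached 1 FPKM. With IL-1β nearly all of that sum was Fabp4, at 367 FPKM against 31.3 with vehicle. Adipoq averaged 4.06 FPKM with bleomycin, 13.9 with doxorubicin and 0.043 with IL-1β, against 0.104 with vehicle, and Cfd was listed at 0 in all 4 IL-1β libraries. The 7 osteoblast markers summed to 23.8 to 33.5, 22.9 to 28.5 and 30.1 to 37.3 FPKM with bleomycin, doxorubicin and IL-1β, against 23.8 to 31.7 with vehicle. That sum held opposed moves. Bglap2 rose from a low level, to 5.23, 5.22 and 11.4 FPKM in that order against 0.37 with vehicle. Alpl averaged 5.85, 5.62 and 6.88 FPKM against 10.6, and Ibsp 12.5, 11.4 and 5.71 FPKM against 14.1. The 6 tendon markers summed to 702 to 748, 676 to 703 and 272 to 291 FPKM in the same order, against 416 to 529 with vehicle. Most of that sum was Fmod, also a listed SOX9 target, while Tnmd averaged 2.37, 4.95 and 2.76 FPKM against 15.9 with vehicle, and Thbs4 9.43, 21.8 and 10.1 FPKM against 28.9. Levels of the 6 skeletal muscle markers summed to at most 6.31 FPKM in every library.

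The genes whose levels ran most like each of the 10 are given as a description over 16 libraries that share 4 conditions. Sox9 ran closest with Creb3l2 (Pearson r = 0.98 of log2 values), Matn3 (0.97) and Col11a1 (0.97). Sox6 ran closest with Ak3, Peg3 and Col11a1 (0.94 each), so 1 of its 3 nearest genes was also among those of Sox9. Sox5 ran closest with Ep300 (0.91), Lncpint (0.86) and Arel1 (0.85). The nearest gene was Laptm4a for Sox4 (0.97), Tst for Runx1 (0.98), Pck2 for Runx3 (0.94), Fam167a for Nkx3-2 (0.91), Zfp574 for Barx1 (0.91), Rnf138 for Foxc1 (0.87) and Cep85l for Trps1 (0.80).

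Among the 10 genes themselves, Sox9 and Sox6 had r = 0.90 over the 16 libraries and 0.05 once each group's mean was taken out, so their likeness lay between the conditions. Sox9 and Runx1 had r = -0.80 over all libraries and 0.42 within groups. For Sox4 and Runx3 the values were -0.80 and -0.31. Nkx3-2 and Barx1 had r = 0.82 over all libraries and 0.54 within groups. Sox5 and Sox4 also had positive values on both counts, at 0.70 and 0.48.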

How the data were processed

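The deposited tables, 1 per library, list FPKM for 55450 genes as computed by the authors. Trimmomatic trimmed the reads and STAR aligned them to GRCm38, per the submitters' processing notes; no versions are given, nor are the counting tool and its use of strand. The low values did not come out as whole fragments, so counts were not recovered and no count test was run. Values were analysed as log2(FPKM + 1) without further scaling. The 12976 genes that reached 1 FPKM in 4 or more of 16 libraries were fitted in limma 3.58.1 (R 4.3.3, with a mean-variance trend, 4 groups, 16 libraries, two-sided), with Benjamini-Hochberg adjustment over all tested genes of a comparison. The fit was tested on simulated data. Coordinates and exon overlaps come from GENCODE M21 (GRCm38), promoter sequences from RefSeq (GRCm38.p6). Tables and figures used Python 3.11.15, pandas 2.3.3, numpy 2.4.6 and matplotlib 3.10.9.

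The 10 genes and the gene lists were chosen with earlier results of these data known. All 10 are named. From the lists of SOX9 targets, partners, other skeletal transcription factors and hypertrophy genes, the called genes with the largest rise and fall against vehicle are named. Also named are defining markers at 0, the nearest genes by correlation, and the other genes said to be picked later. The cell type markers did not follow that rule, and those named besides markers at 0 were picked after their values were seen. Depth was estimated from the steps between low FPKM values, and whether a step is 1 fragment was not settled, so it limits precision only roughly. Between replicates of a group, at most 0.0085% of values were equal. Alternatives were pseudocounts of 0.1 and 0.01, no filter, a filter at a mean of 5 FPKM, 3 scalings, a fit without trend, a fit of the compared groups only, a replicate block and each library left out.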

Additional observations from a re-analysis of the deposited data

Results flagged for a closer look

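Among the 40 sets of 4 libraries (10 genes in 4 groups), 4 had a highest or lowest library whose gap to the nearest other was too large a part of the whole range by Dixon's test, and chance gives about 1 in 20 such sets. In doxorubicin replicate 3, Sox9 was highest of its group at 51.2 FPKM, with the nearest library at 45.8. Sox6 was lowest of its group in doxorubicin replicate 2, at 13.2 FPKM, with the nearest at 14.3. For Sox4, IL-1β replicate 3 was lowest at 11.6 FPKM, with the nearest at 14.2. Trps1 was highest in bleomycin replicate 4 at 18.1 FPKM, with the nearest at 13.7.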

How the results depend on the processing

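The 6 total counts of called genes stayed within 1.5 times in all 156 alternatives, but some counts by direction went past that. Higher calls in bleomycin minus doxorubicin were 481 without bleomycin replicate 1 and 433 with median-of-ratios scaling, against 759. The filter at a mean of 5 FPKM, which tests fewer genes, gave 2165 higher in doxorubicin minus vehicle (3302), 361 lower in bleomycin minus doxorubicin (542) and 2146 higher in doxorubicin minus IL-1β (3253). Equal-sum scaling gave 1312 higher and 6821 lower in IL-1β minus vehicle (3181 and 2393). It gave 7515 and 1194 in bleomycin minus IL-1β (3578 and 3271), and 6924 and 1524 in doxorubicin minus IL-1β (3253 and 3785). Of the calls on the 10 genes, 22 of 27 held in every alternative that tested the gene. Runx3 and Nkx3-2, with means of 4.30 and 3.52 FPKM, were not tested under the filter at a mean of 5 FPKM. The lost calls are Sox5 with either drug against vehicle and Runx3 (both drugs) and Foxc1 (doxorubicin) against IL-1β. Equal-sum scaling moved the medians of all genes to -0.31 (IL-1β minus vehicle), 0.37 (bleomycin minus IL-1β) and 0.32 (doxorubicin minus IL-1β), and the share of calls that were higher to 16.1%, 86.3% and 82.0%, against 57.1%, 52.2% and 46.2%. It turned Sox5 (-0.18), Sox4 (-0.25) and Foxc1 (-0.32, called) in IL-1β minus vehicle, Runx3 (0.0387) and Foxc1 (0.28, called) in bleomycin minus IL-1β, and Foxc1 (0.16) in doxorubicin minus IL-1β. It also added calls for Nkx3-2 in bleomycin minus vehicle, for Barx1 in bleomycin minus doxorubicin, for Nkx3-2, Trps1 and Barx1 in IL-1β minus vehicle, for Sox5 and Trps1 with either drug minus IL-1β, and for Nkx3-2 and Barx1 in doxorubicin minus IL-1β. Median-of-ratios scaling and quantile normalization turned only uncalled values: Trps1 in bleomycin minus vehicle (-0.001 and -0.0014), Nkx3-2 in doxorubicin minus vehicle (-0.0045 and -0.0444), Foxc1 in IL-1β minus vehicle (-0.0026 and -0.0083), and in bleomycin minus doxorubicin Sox5 (-0.0153 and -0.017) and Runx3 (-0.0066 and -0.0123). Both called Foxc1 in doxorubicin minus vehicle (adjusted p = 0.0377 and 0.0482). Quantile normalization also called Nkx3-2 in IL-1β minus vehicle (adjusted p = 0.0441) and Barx1 in doxorubicin minus IL-1β (0.28, adjusted p = 0.0467). These scalings gave a higher share of 50.0% and 48.3% in bleomycin minus vehicle (59.5% as reported) and 38.7% and 46.6% in bleomycin minus doxorubicin (58.3%). Quantile normalization gave 44.0% in IL-1β minus vehicle. The cause was not tested.

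Leaving out 1 library at a time turned only uncalled values, with ranges of -0.0661 to 0.0369 (Runx1) and -0.0422 to 0.2366 (Trps1) in bleomycin minus vehicle; -0.0743 to 0.0864 (Nkx3-2), -0.1124 to 0.1503 (Trps1) and -0.0193 to 0.1462 (Barx1) in doxorubicin minus vehicle; -0.2133 to 0.0494 (Trps1) and -0.0001 to 0.0708 (Foxc1) in IL-1β minus vehicle; -0.029 to 0.0654 (Sox5), -0.0334 to 0.0936 (Runx3) and -0.0197 to 0.1412 (Trps1) in bleomycin minus doxorubicin; and -0.0029 to 0.091 (Sox5) in doxorubicin minus IL-1β. Same-numbered libraries correlated at -0.0233 to 0.2136 in their deviations from group means. Their median was 0.0518, against -0.02325 for differently numbered libraries, and 13 of 16 libraries correlated best on average with their own number. The numbers were not taken to pair the libraries in the reported fit. Its p-values therefore take no account of an effect shared by same-numbered libraries. A replicate block gave 6209, 6441, 5735, 1488, 7001 and 7160 called genes, against 6086, 6262, 5574, 1301, 6849 and 7038, for bleomycin, doxorubicin and IL-1β minus vehicle, bleomycin minus doxorubicin, and bleomycin and doxorubicin minus IL-1β. It lost no call on the 10 genes and added Nkx3-2 in bleomycin minus vehicle (adjusted p = 0.0225), IL-1β minus vehicle (0.0377) and doxorubicin minus IL-1β (0.0254), Barx1 in bleomycin minus doxorubicin (0.0103) and doxorubicin minus IL-1β (0.0382), and Foxc1 in doxorubicin minus vehicle (0.0356). Depth limits are rough, since the fragment estimate was not settled.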
